A study of Drosophila melanogaster with 8 samples.

Results

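The transcripts described here are those of the eukaryotic translation initiation factors of Drosophila melanogaster, measured in S2 cells, a macrophage-like line derived from embryos. The members are the genes whose symbol in the platform annotation starts with eIF followed by a digit, leaving out eIF6. They were taken from probe sets that name a single gene. This rule reads symbols and not measured values, but members were chosen with earlier results of these data known. There were 38 such genes among 11009 with a single-gene probe set, read by 42 of 12339 such probe sets. The series holds 4 groups of 2 samples. In the first, cells received scrambled double-stranded RNA (dsRNA) and, 72 h later, Cellfectin alone, a lipid transfection reagent (scrambled mock). In the second, scrambled dsRNA was followed by transfection of cyclic di-GMP, a bacterial second messenger (scrambled c-di-GMP). The other groups received dsRNA against DmSTING, the fly counterpart of STING, a sensor of cyclic dinucleotides, followed by Cellfectin alone (DmSTING RNAi mock) or by c-di-GMP (DmSTING RNAi c-di-GMP). Every group was thus transfected with dsRNA and lipid, and RNA was taken 24 h after the later transfection. The study asked how DmSTING affects what c-di-GMP does in these cells. The labels do not say if replicates came from separate cultures, so the p-values rest on a spread between samples that could be technical. The genotype field contradicts the titles in 4 samples, and the groups used here follow the titles.

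Translation of most messages begins when a small ribosomal subunit carrying the initiator tRNA is recruited to the capped end of the message and scans to a start codon. The factor eIF2 delivers the initiator tRNA and is recycled by its exchange factor eIF2B. The large complex eIF3 serves as a scaffold on the small subunit, the eIF4 group recognises the cap and unwinds the leader, eIF1 guards the choice of start codon, and eIF5 and eIF5B release eIF2 and join the large subunit. The fly genome also carries extra copies of several of these genes that are known mainly from testis or germline.

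Values are given on a log2 scale on which 0 is the median of the 8 samples for that probe set, as the authors deposited them, so that groups can be compared but no level can be read. For the same reason an absent transcript cannot be told from a present one, also for the markers of cell types. In bulk RNA, fewer cells of a type and less RNA per cell cannot be told apart. Sting, the gene targeted by the dsRNA, stood between 0.46 and 0.83 in the 4 samples given scrambled dsRNA and between -0.84 and -0.46 in the 4 given DmSTING dsRNA. The SD of the difference between replicates over all genes ran from 0.119 in DmSTING RNAi mock to 0.233 in scrambled c-di-GMP. With 2 arrays in a group their number limits the precision.

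With both dsRNAs averaged, 9 of the 38 initiation factor transcripts rose with c-di-GMP and 2 fell, all by less than 0.4 on the log2 scale. A gene counts as called when its adjusted p in limma, after Benjamini-Hochberg adjustment over all 11009 genes, is under 0.05. Those that rose were eIF2Bgamma, eIF4EHP, eIF2beta, eIF2Bdelta, eIF4G1, eIF4B, eIF4G2, eIF1 and eIF3j, and those that fell were eIF3l and eIF3m. Called members were 28.9% of the list, against 20.9% of all genes; 23.7% were called higher, against 7.65% of all genes, and 5.26% lower, against 13.3%. The median change of the 38 members was -0.02, beside -0.03 over all genes, so the called members lay in both tails of a list centred close to 0. The 4 c-di-GMP samples lay wholly above the 4 mock samples for 11 members, where 9.71% of all genes did so, and wholly below for 6, where 15.4% did (25.1% in either direction). These calls depended in part on single samples. Fewer members were called without either replicate of scrambled mock, either replicate of DmSTING RNAi mock or replicate 2 of DmSTING RNAi c-di-GMP. In each of these fits fewer of all genes were called too.

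**Figure D1:**
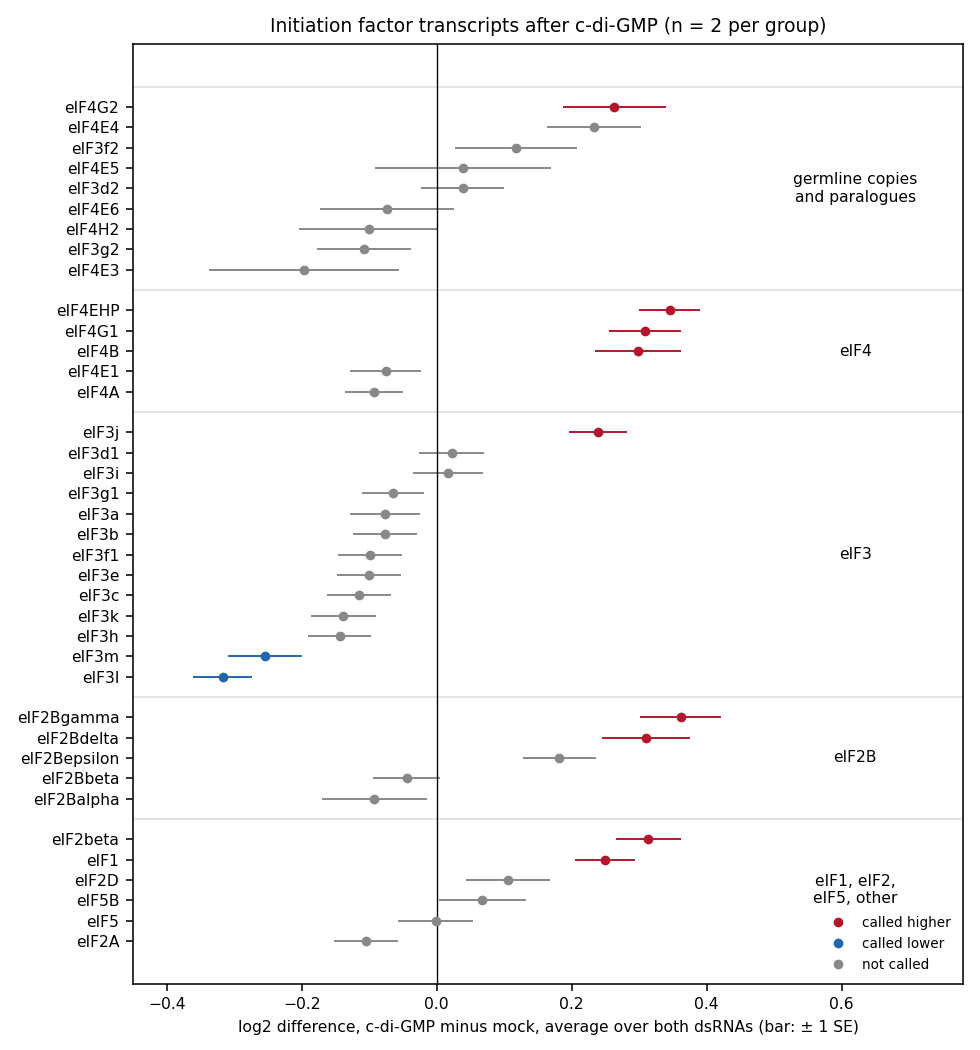
The log2 difference between c-di-GMP and mock, averaged over both dsRNAs, is plotted for each of the 38 initiation factors by complex, with bars of ± 1 SE from limma (n = 2 per group). The called members with higher values fall in eIF1, eIF2, eIF2B, the eIF4 group, eIF3j and eIF4G2. Of the 13 eIF3 subunits other than the germline copies 10 lie below 0, where 6280 of all 11009 genes do.

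Of eIF2 the beta subunit was the one measured, and its transcript rose with c-di-GMP, as did that of eIF1. For eIF2beta, a subunit of eIF2, the log2 values were -0.27 and -0.18 (mock) and 0.11 and 0.11 (c-di-GMP) after scrambled dsRNA, and -0.12 and -0.11 (mock) and 0.23 and 0.14 (c-di-GMP) after DmSTING dsRNA. All 4 samples given c-di-GMP were above all 4 mock samples. On average eIF2beta rose by 0.31 (SE 0.05, n = 2 per group, 1.24-fold, adjusted p = 0.0047). The transcript of eIF1 stood at -0.12 and -0.15 (mock) and 0.13 and 0.09 (c-di-GMP) after scrambled dsRNA, and -0.09 and -0.11 (mock) and 0.17 and 0.14 (c-di-GMP) after DmSTING dsRNA, again without overlap. It rose by 0.25 (SE 0.04, adjusted p = 0.00805), a call lost without replicate 2 of DmSTING RNAi mock (adjusted p = 0.0507).

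Of the 5 subunits of eIF2B, 2 rose, eIF2Bgamma and eIF2Bdelta, where 7.65% of all genes were called higher. The others were not called. The gamma and epsilon subunits form the catalytic part of this exchange factor, and alpha, beta and delta the regulatory part that senses phosphorylated eIF2. The values of eIF2Bgamma were -0.33 and -0.18 (mock) and 0.25 and 0.1 (c-di-GMP) after scrambled dsRNA, and -0.16 and -0.1 (mock) and 0.17 and 0.17 (c-di-GMP) after DmSTING dsRNA. It rose by 0.36 (SE 0.06, 1.28-fold, adjusted p = 0.00602), and the groups did not overlap. For eIF2Bdelta they were -0.42 and -0.21 (mock) and 0.05 and 0.08 (c-di-GMP) after scrambled dsRNA, and -0.12 and -0.05 (mock) and 0.09 and 0.23 (c-di-GMP) after DmSTING dsRNA, with the lowest value in replicate 1 of scrambled mock. It rose by 0.31 (SE 0.07, adjusted p = 0.0159), a call lost without either replicate of DmSTING RNAi mock (adjusted p = 0.0732 and 0.0524) or without replicate 2 of DmSTING RNAi c-di-GMP (adjusted p = 0.0523). The remaining subunits split: eIF2Bepsilon was at 0.18 (adjusted p = 0.0524) with groups that did not overlap, eIF2Bbeta at -0.04 and eIF2Balpha at -0.09, which makes 3 of the 5 above 0 and 2 below. The call of eIF2Bepsilon was made when columns were quantile normalized or centred on their medians.

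The eIF3 transcripts lay mostly on the other side of 0. Of the 13 subunits other than the germline copies, 10 were below 0 and 3 above, with a median of -0.1. Over all 11009 genes 6280 were below 0. Of these subunits eIF3l and eIF3m fell, and eIF3j rose, where 13.3% of all genes were called lower and 7.65% higher. The log2 values of eIF3l were 0.22 and 0.19 (mock) and -0.12 and -0.13 (c-di-GMP) after scrambled dsRNA, and 0.13 and 0.12 (mock) and -0.19 and -0.16 (c-di-GMP) after DmSTING dsRNA. Replicates of eIF3l differed by at most 0.03, and the treated and mock samples did not overlap. It fell by 0.32 (SE 0.04, 1.25-fold, adjusted p = 0.00309). For eIF3m the values were 0.07 and 0.19 (mock) and -0.15 and -0.22 (c-di-GMP) after scrambled dsRNA, and 0.06 and 0.18 (mock) and -0.06 and -0.09 (c-di-GMP) after DmSTING dsRNA. It fell by 0.25 (SE 0.05, adjusted p = 0.017), and the call was lost without replicate 2 of scrambled mock (adjusted p = 0.0578), replicate 2 of DmSTING RNAi mock (adjusted p = 0.0845) or replicate 2 of DmSTING RNAi c-di-GMP (adjusted p = 0.0523).

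In mammals eIF3l and eIF3m belong to an octamer of subunits that carry PCI or MPN domains, together with eIF3a, eIF3c, eIF3e, eIF3f, eIF3h and eIF3k. This grouping of the fly transcripts, with eIF3f1 for the f subunit, was chosen after their values were seen and was not tested. All 8 were below 0 on average, from -0.32 for eIF3l to -0.08 for eIF3a with a median of -0.13, where 6280 of all 11009 genes were below 0. On average all 8 stayed below 0 in every alternative, and after DmSTING dsRNA 7 or 8 did. The alternatives refit the same samples, so they are no separate support for this grouping. Those not called were eIF3h at -0.14 (adjusted p = 0.0712), eIF3k at -0.14 (adjusted p = 0.0873), eIF3c at -0.12, eIF3e and eIF3f1 at -0.1, and eIF3a at -0.08. The sample medians over these 8 transcripts were 0 and 0.06 (mock) and -0.14 and -0.13 (c-di-GMP) after scrambled dsRNA, and 0.04 and 0.05 (mock) and -0.02 and -0.02 (c-di-GMP) after DmSTING dsRNA. They were lowest in the scrambled c-di-GMP samples, and no mock sample was as low as any treated sample. The median change was -0.18 after scrambled and -0.09 after DmSTING dsRNA, and the difference between the arms, which was not called for any of the 8, was above 0 for all 8 (median 0.1, beside 0.02 over all genes).

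The remaining eIF3 subunits varied. The transcript of eIF3j, a loosely bound subunit that sits near the decoding centre, stood at -0.1 and -0.1 (mock) and 0.1 and 0.13 (c-di-GMP) after scrambled dsRNA, and -0.15 and -0.16 (mock) and 0.1 and 0.1 (c-di-GMP) after DmSTING dsRNA. Replicates lay close together, and eIF3j rose by 0.24 (SE 0.04, adjusted p = 0.00844), a call lost without replicate 2 of DmSTING RNAi mock (adjusted p = 0.0521). It thus moved opposite to eIF3l and eIF3m within the same complex. The transcripts of eIF3b, eIF3g1, eIF3i and eIF3d1, the last a subunit that can itself bind caps in mammals, lay between -0.08 and 0.02 and were not called.

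In the eIF4 group eIF4G1, eIF4B and eIF4EHP rose, while eIF4E1 and eIF4A were not called. For eIF4G1, the scaffold that joins the cap-binding protein to the small subunit, the values were -0.07 and -0.21 (mock) and 0.19 and 0.14 (c-di-GMP) after scrambled dsRNA, and -0.18 and -0.23 (mock) and 0.14 and 0.07 (c-di-GMP) after DmSTING dsRNA. It rose by 0.31 (SE 0.05, adjusted p = 0.00733), and the groups did not overlap. The mean of the 4 probe sets of eIF4B, which stimulates the helicase, was -0.17 and -0.07 (mock) and 0.19 and 0.29 (c-di-GMP) after scrambled dsRNA, and -0.05 and -0.2 (mock) and 0.03 and 0.18 (c-di-GMP) after DmSTING dsRNA. It rose by 0.3 (SE 0.06, adjusted p = 0.0166), and its 4 probe sets gave 0.3, 0.36, 0.23 and 0.3. The call of eIF4B was lost without replicate 1 of scrambled mock (adjusted p = 0.0583), replicate 2 of DmSTING RNAi mock (adjusted p = 0.0771) or replicate 2 of DmSTING RNAi c-di-GMP (adjusted p = 0.0523).

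The transcript of eIF4EHP, a cap-binding protein that does not bind the eIF4G scaffold and represses translation, averaged over its 2 probe sets, was -0.19 and -0.18 (mock) and 0.12 and 0.16 (c-di-GMP) after scrambled dsRNA, and -0.11 and -0.14 (mock) and 0.23 and 0.26 (c-di-GMP) after DmSTING dsRNA. It rose by 0.34 (SE 0.04, adjusted p = 0.00243) without overlap. Its probe sets disagreed, however, since one gave a difference of 0.65 and the other 0.04, so the size of this change depends on which is read. In the former the mock samples lay between -0.41 and -0.21 and the treated samples between 0.21 and 0.51, while in the latter treated and mock samples overlapped. With the former, which has the larger spread, in place of the mean, eIF4EHP was at 0.65 (adjusted p = 0.000765), and the latter was not fitted alone. The general cap-binding protein eIF4E1 stood at -0.08 (SE 0.05, adjusted p = 0.363) and the helicase eIF4A at -0.09 (SE 0.04, adjusted p = 0.18). The values of eIF4A were 0.08 and 0.07 (mock) and -0.03 and -0.04 (c-di-GMP) after scrambled dsRNA, and 0.03 and 0.05 (mock) and -0.04 and -0.04 (c-di-GMP) after DmSTING dsRNA, the smallest spread between replicates of any member (pooled SD 0.01) and no overlap between treated and mock samples, but no call.

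The factors of subunit joining and the alternative carriers of initiator tRNA were not called. The GTPase-activating factor eIF5 was at -0.0015 (SE 0.06), the GTPase eIF5B at 0.07 (SE 0.06), eIF2A at -0.1 (SE 0.05, adjusted p = 0.171) and eIF2D at 0.11 (SE 0.06, adjusted p = 0.287).

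**Figure D2:**
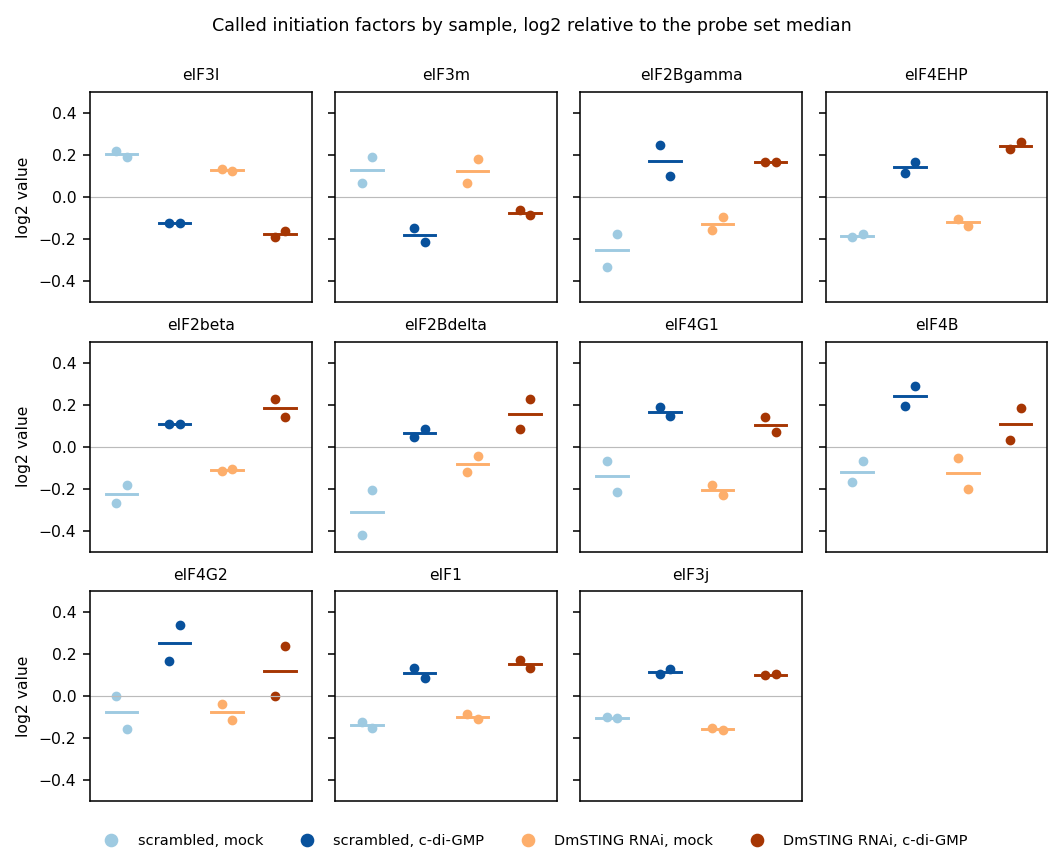
The log2 value of each sample, relative to the probe set median over all 8, is plotted for the 11 called members in the 4 groups, with points for samples and a line for the mean of each group of 2. The c-di-GMP samples of eIF3l and eIF3m lie below all mock samples and those of the other nine above, narrowly so for eIF4G2, whose replicate 1 of DmSTING RNAi c-di-GMP was at 0 and replicate 1 of scrambled mock just under it.

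The copies known from testis or germline, with the paralogue eIF4H2, gave 9 members, of which only eIF4G2 was called, beside 20.9% of all genes. Their replicates spread more widely than those of the other members: the pooled SD between replicates had a median of 0.153 over the 9 copies (0.083 to 0.254), of 0.043 over the other 29 members (0.01 to 0.123) and of 0.096 over all genes. Whether these probe sets were above background cannot be read from centred values. Their median change with c-di-GMP was 0.04, with 5 above 0 and 4 below.

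The values of eIF4G2, a scaffold paralogue needed for spermatogenesis in flies, were 0 and -0.15 (mock) and 0.17 and 0.34 (c-di-GMP) after scrambled dsRNA, and -0.04 and -0.11 (mock) and 0 and 0.24 (c-di-GMP) after DmSTING dsRNA. It rose by 0.26 (SE 0.08, adjusted p = 0.0488), close to the 0.31 of its paralogue eIF4G1. The call of eIF4G2 was lost without any sample other than replicate 1 of scrambled c-di-GMP and replicate 1 of DmSTING RNAi c-di-GMP (adjusted p from 0.0691 to 0.159), with the replicate number as a block (adjusted p = 0.0611), with the robust prior (adjusted p = 0.0519) and with 1 probe set per gene, that of largest spread (adjusted p = 0.0525).

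Among the cap-binding copies, eIF4E4 stood at -0.22 and -0.06 (mock) and 0.19 and 0.01 (c-di-GMP) after scrambled dsRNA, and -0.01 and -0.02 (mock) and 0.29 and 0.13 (c-di-GMP) after DmSTING dsRNA. All treated samples were above all mock samples, at a difference of 0.23 (SE 0.07, adjusted p = 0.0534). It was called without replicate 2 of scrambled c-di-GMP (adjusted p = 0.0318) and when columns were quantile normalized or centred. The testis copy eIF4E3 was at -0.2 (SE 0.14, adjusted p = 0.378), and its scrambled c-di-GMP replicates were at -0.52 and 0.16. Without the second of them eIF4E3 was at -0.37 and called (adjusted p = 0.0109), so 1 sample decides this value. For eIF4E5 the difference was 0.04 (SE 0.13, adjusted p = 0.871) and for eIF4E6 -0.07 (SE 0.1, adjusted p = 0.656). The general eIF4E1 spread far less, with all 8 samples between -0.14 and 0.05.

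The copies of eIF3 subunits were not called. The difference was 0.04 for eIF3d2 (SE 0.06, adjusted p = 0.713), beside 0.02 for eIF3d1, and 0.12 for eIF3f2 (SE 0.09, adjusted p = 0.417), beside -0.1 for eIF3f1. It was -0.11 for eIF3g2 (SE 0.07, adjusted p = 0.329), beside -0.07 for eIF3g1. The paralogue eIF4H2 was at -0.1 (SE 0.1, adjusted p = 0.544). None of these differences between a copy and its counterpart was tested. Single samples set several of these values: eIF3f2 was at 0.21 without replicate 1 and 0.03 without replicate 2 of scrambled c-di-GMP, and eIF4H2 at -0.2 and -0.01. For eIF3g2 the value was -0.17 without replicate 1 and -0.05 without replicate 2 of DmSTING RNAi c-di-GMP.

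**Figure D3:**
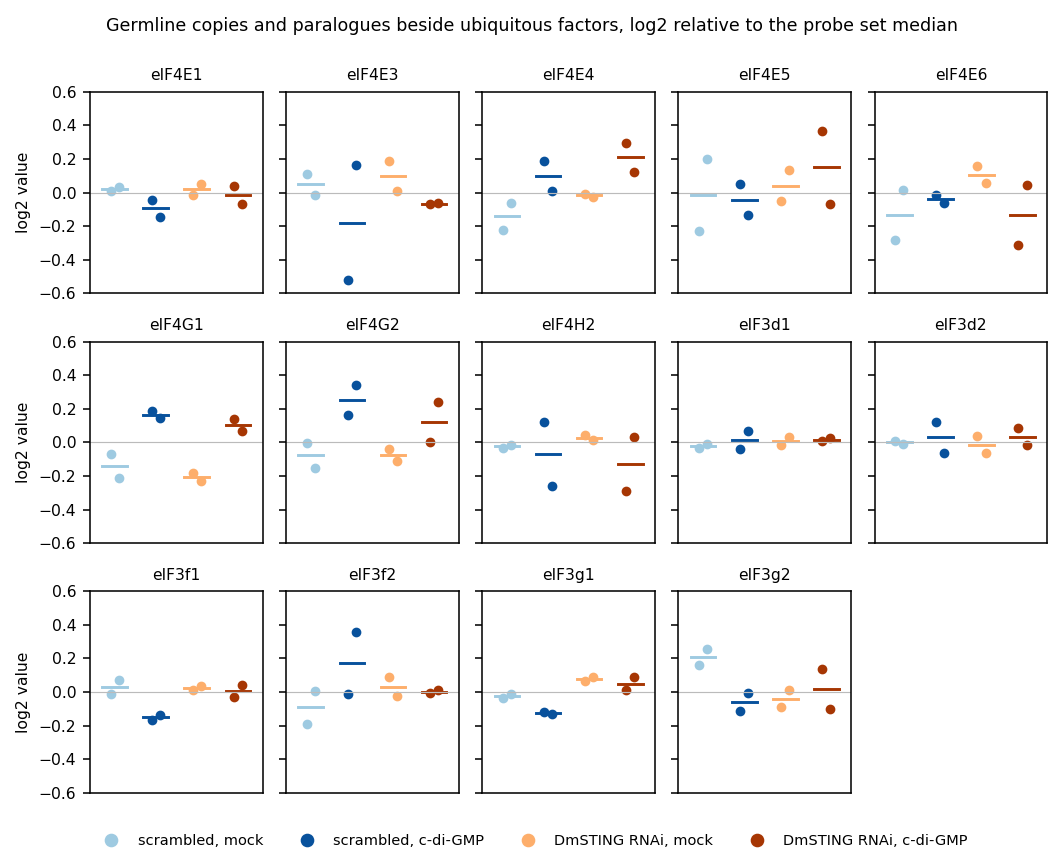
The log2 value of each sample relative to the probe set median is plotted for the germline copies and eIF4H2 and for the general counterparts eIF4E1, eIF4G1, eIF3d1, eIF3f1 and eIF3g1, with a line for the mean of each group of 2. The 8 values of eIF4E3 span 0.71 and those of eIF4E5 0.59, against 0.2 for eIF4E1.

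Taken by dsRNA arm, 9 initiation factors were called with c-di-GMP after scrambled dsRNA, 7 higher and 2 lower, and 4 after DmSTING dsRNA, 3 higher and 1 lower. The background was 12.1% of all genes called in the scrambled arm (4.14% higher, 7.93% lower) and 7.44% in the DmSTING RNAi arm (3.27% higher, 4.17% lower). The members called in both arms were eIF4EHP, eIF2beta and eIF3l. The change of eIF4EHP was 0.33 after scrambled and 0.36 after DmSTING dsRNA (adjusted p = 0.0208 and 0.0177), that of eIF2beta 0.33 and 0.3 (adjusted p = 0.0247 and 0.0458, the second lost with the replicate number as a block), and that of eIF3l -0.33 and -0.31 (adjusted p = 0.0186 and 0.0288). Those called after scrambled dsRNA but not after DmSTING dsRNA were eIF2Bgamma (0.43 and 0.3), eIF2Bdelta (0.38 and 0.24), eIF4B (0.36 and 0.23), eIF4G1 (0.31 and 0.31), eIF1 (0.25 and 0.25) and eIF3m (-0.31 and -0.2). After DmSTING dsRNA eIF3j was called as well, at 0.26 beside 0.22 in the scrambled arm. The eIF3j call was lost with the block, the robust prior, the probe set of largest spread or a fit of only the 4 samples compared. That of eIF2beta after DmSTING dsRNA was also lost with the probe set of largest spread or only those 4 samples. Of the 38 members, 15 were above 0 in both arms, 16 below 0 in both and 7 of opposite sign.

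These calls within an arm depended on single samples. After scrambled dsRNA none of these calls was kept without either replicate of scrambled mock or either replicate of DmSTING RNAi mock. Only some were kept without any 1 c-di-GMP sample. Without replicate 1 of scrambled c-di-GMP eIF3f2 was gained, and without replicate 2 eIF4E3. Calls over all genes fell in each of these fits except that without replicate 2 of scrambled c-di-GMP. Samples of the other arm alter only the estimate of the spread there. After DmSTING dsRNA none was kept without any 1 sample of that arm, and fewer were kept without either replicate of scrambled mock. Calls over all genes fell there too. All were kept without either replicate of scrambled c-di-GMP. None of the members called in an arm changed sign there in these fits. Both arms also shared 1 estimate of the spread. With only its own 4 samples fitted, the scrambled arm gave 0 calls among members and 141 among all genes. The DmSTING RNAi arm then gave 2 and 818, so the larger count of the scrambled arm depends on the shared spread.

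No member's response differed between the arms by the test of the difference itself, where 0 of 38 members and 0 of 11009 genes were called (0% of all genes) by limma with the standard and with the robust prior. At an unadjusted p under 0.05 there was 1 member, eIF3g2, and 540 genes. The values of eIF3g2 were 0.16 and 0.26 (mock) and -0.12 and -0.01 (c-di-GMP) after scrambled dsRNA, and -0.09 and 0.01 (mock) and 0.14 and -0.1 (c-di-GMP) after DmSTING dsRNA, so the scrambled mock samples were the high ones. Its response was higher after DmSTING dsRNA by 0.33 (SE 0.14, adjusted p = 0.988). The next smallest p was that of eIF3f1, with a difference of 0.16 (SE 0.1, adjusted p = 0.988). The 95% intervals of the differences are wide beside the changes themselves: their half-width was 0.202 to 0.659 with a median of 0.249, so that of eIF4EHP ran from -0.17 to 0.25, that of eIF3l from -0.18 to 0.23 and that of eIF2Bgamma from -0.41 to 0.15.

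**Figure D4:**
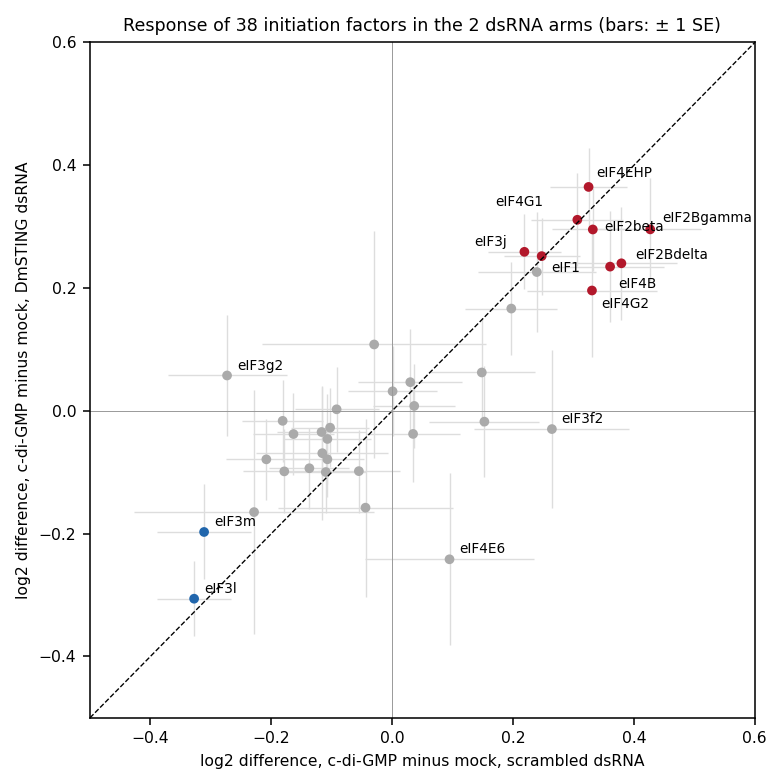
The log2 change with c-di-GMP after DmSTING dsRNA is plotted against that after scrambled dsRNA for the 38 members, with bars of ± 1 SE and a dashed line of equal change, and members called on average are coloured red (higher) or blue (lower). The called members lie in the upper right and lower left. Of these, eIF2Bdelta, eIF4G2, eIF2Bgamma and eIF4B lie furthest below the dashed line and eIF3m furthest above it. The uncalled eIF3g2, eIF3f2 and eIF4E6 lie further from the line than any called member.

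DmSTING dsRNA by itself changed no initiation factor past the threshold. Against scrambled dsRNA 0 of 38 members were called on average over mock and c-di-GMP, under mock or under c-di-GMP, by limma with the standard or the robust prior, where in each case 1 of 11009 genes was called (0.00908%), the targeted Sting. At an unadjusted p under 0.05 there were 6, 4 and 3 members, and 1380, 355 and 1511 genes. On average the smallest p-values belonged to eIF2Bbeta and eIF3b. The values of eIF2Bbeta were -0.09 and -0.03 (mock) and -0.13 and -0.18 (c-di-GMP) after scrambled dsRNA, and 0.08 and 0.1 (mock) and 0.14 and 0.03 (c-di-GMP) after DmSTING dsRNA. All samples given DmSTING dsRNA were above all given scrambled dsRNA, with a difference of 0.2 (SE 0.05, adjusted p = 0.341). For eIF3b, a core subunit of eIF3, the difference was 0.16 (SE 0.05, adjusted p = 0.341).

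The groups by dsRNA also did not overlap for eIF3g1 and eIF5B, which makes 4 members higher and 0 lower, beside 2.99% and 1.63% of all genes (4.61% in either direction). Under mock eIF5B had the smallest p, at 0.29 (SE 0.09, adjusted p = 0.996), followed by eIF3b at 0.19 (SE 0.07, adjusted p = 0.996). The scrambled mock replicates of eIF5B were at -0.35 and -0.14, and its DmSTING RNAi mock replicates at 0.04 and 0.04. Under c-di-GMP the smallest p-values were those of eIF2Bbeta at 0.24 (SE 0.07, adjusted p = 0.291) and eIF3g1 at 0.18 (SE 0.06, adjusted p = 0.333). The median difference of the 38 members was 0.06 on average, beside 0.02 over all genes.

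Other genes of translation were read from lists of regulators of initiation and of elongation and termination factors. Of 23 regulators listed, 19 were measured, and with c-di-GMP averaged over both dsRNAs 4 rose and 4 fell, at a median of 0.01, where 20.9% of all genes were called. Without replicate 2 of DmSTING RNAi mock the calls kept were those of NAT1, Pdcd4 and Lk6. Some regulator calls were also lost without any other 1 sample except replicate 1 of scrambled c-di-GMP. Fewer of all genes were called in the fits that lost calls, except that without replicate 2 of scrambled c-di-GMP. MCTS1, at -0.17, was among the regulators that fell. Its call was also lost with quantile normalization, median centring, the robust prior or the probe set of largest spread. The largest change was in Pdcd4, whose mammalian counterpart inhibits the helicase eIF4A. Its values were 0.34 and 0.46 (mock) and -0.42 and -0.52 (c-di-GMP) after scrambled dsRNA, and 0.46 and 0.45 (mock) and -0.34 and -0.55 (c-di-GMP) after DmSTING dsRNA. Pdcd4 fell by 0.88 (SE 0.07, 1.84-fold, adjusted p = 0.000506), more than any initiation factor, and by 0.86 and 0.9 in the scrambled and DmSTING RNAi arms.

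NAT1, an eIF4G-like protein without the site for the cap-binding protein, stood at -0.16 and -0.24 (mock) and 0.16 and 0.23 (c-di-GMP) after scrambled dsRNA, and -0.22 and -0.17 (mock) and 0.24 and 0.21 (c-di-GMP) after DmSTING dsRNA. It rose by 0.41 (SE 0.05, adjusted p = 0.00183). The kinase Lk6, which phosphorylates eIF4E, fell by 0.3 (SE 0.05, adjusted p = 0.00643), with all treated samples between -0.28 and -0.06 and all mock samples between 0.06 and 0.23. The eIF2alpha kinase PEK rose by 0.25 (SE 0.05, adjusted p = 0.0126), a call lost without replicate 2 of DmSTING RNAi mock (adjusted p = 0.0695).

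Of 15 elongation and termination genes listed, 10 were measured, and 4 rose and 0 fell, at a median of 0.1. Over all genes 7.65% rose and 13.3% fell. HBS1, a GTPase that frees stalled ribosomes, rose by 0.38 (SE 0.05, adjusted p = 0.00259), Dph5, an enzyme that modifies elongation factor eEF2, by 0.37 (SE 0.05, adjusted p = 0.00205), and eEF1delta, an exchange factor of elongation, by 0.36 (SE 0.05, adjusted p = 0.0022). In each of these the 4 treated samples were above the 4 mock samples, as in 9.71% of all genes. The release factor eRF1 rose by 0.16 (SE 0.04, adjusted p = 0.0417), a call lost without any 1 of the 8 samples (adjusted p from 0.0549 to 0.157). Against scrambled dsRNA, DmSTING dsRNA gave 0 calls in either list.

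**Figure D5:**
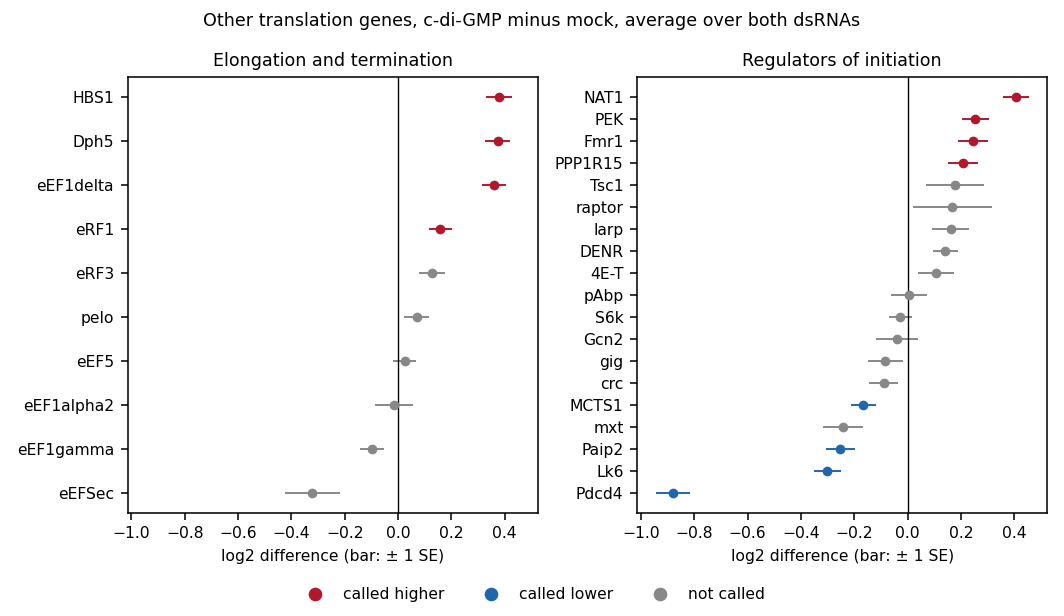
The log2 difference between c-di-GMP and mock, averaged over both dsRNAs, is plotted for 10 elongation and termination genes and 19 regulators of initiation, with bars of ± 1 SE and the called genes in colour. Pdcd4 lies furthest from 0, at -0.88, and NAT1, HBS1, Dph5 and eEF1delta lie highest.

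Markers of plasmatocytes, the hemocyte type S2 cells resemble, moved with c-di-GMP too: of 8 measured 4 fell, where 13.3% of all genes did, namely NimC1 at -0.6, vkg at -0.45, Col4a1 at -0.35 and crq at -0.34. The others were not called, with Hml at 0.06, eater at 0.05, srp at 0 and Pxn at -0.06. By arm 3 were called lower after scrambled dsRNA, beside 7.93% of all genes, and 0 after DmSTING dsRNA, beside 4.17%. NimC1 was at -0.64 and -0.56 (limma adjusted p = 0.0602 after DmSTING dsRNA), vkg at -0.74 and -0.16, and Col4a1 at -0.61 and -0.09. The difference between the arms was called for 0 of 11009 genes, these markers included. The sample medians of this list were between 0.02 and 0.07 in the 4 mock samples and between -0.15 and -0.04 in the 4 treated samples. Of 6 germline markers 2 fell, bam at -1.26 and aub at -0.53, and 0 rose. The other germline markers were not called, with vas at 0.21, AGO3 at 0.06, zpg at 0.05 and piwi at -0.42. Of 5 testis markers 1 fell, mia at -0.41, and 0 rose. The other testis markers were not called, with Mst84Da at 0.14, nht at 0.04, sa at 0.03 and aly at -0.06. Of 3 neuronal markers 1 rose, elav at 0.19 (limma adjusted p = 0.0474), where 7.65% of all genes did. Of 2 muscle markers none was called. The part of these shifts in the results on initiation factors was not tested.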

How the data were processed

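The authors deposited log2 values for 16718 probe sets in each of 8 samples, and per the labels' protocols total RNA was labelled with a 3' IVT kit for Affymetrix arrays. The median of each probe set was within 1e-06 of 0. How probe sets were summarized, corrected for background and scaled is not given in the sources used here, nor is the logarithm's base, taken as 2. Column medians ran from -0.0225 to 0.0079. Groups follow the titles and source names; the genotype field contradicts the titles in 4 samples. Probe sets were named from the platform annotation, checked by Entrez ID against RefSeq (0 symbols updated). Of 43 RefSeq genes that fit the rule, 5 (eIF1A, eIF2alpha, eIF2gamma, eIF4E7 and eIF4H1) had no single-gene probe set and were not analysed here. Probe sets of a gene were averaged, and all 11009 genes were fitted with limma 3.58.1 in R 4.3.3 (4 group means, 4 residual and 3.25 prior degrees of freedom, no block), tested on simulated data. Every member may be named. Statistics are given for the 6 called members highest and lowest with c-di-GMP, all germline copies, and in contrasts without calls the 2 of smallest p. Of each list of other translation genes the 4 called members of largest change are named. Statistics of eIF1, eIF3j, eIF2Bepsilon, eIF3h, eIF3k, eIF4A, eIF4E1, eIF5, eIF5B, eIF2A and eIF2D with c-di-GMP lie outside this rule and were added after their values were seen. Members and lists were chosen with earlier results of these data known. Alternatives were scaling, robust prior, probe set choice, a replicate block, fits of the 4 samples compared and leaving out each sample. Promoter sequences were not used here, centred values allow no dim-probe filter or background correction, and no slide labels were used.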

Additional observations from a re-analysis of the deposited data

How the results depend on the processing

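The 11 calls with c-di-GMP on average over both dsRNAs became 13 with quantile normalization or median centring and 10, without eIF4G2, with the robust prior or the probe set of largest spread. Leaving out 1 sample gave 5 to 12. eIF3l, eIF2beta, eIF2Bgamma, eIF4G1 and eIF4EHP were called in each of these fits, all of which use the responding probe set of eIF4EHP, alone or in the mean. The 9 calls of the scrambled arm became 5 with quantile normalization, where those of all genes went from 1329 to 904. They became 0 when only the 4 samples compared were fitted, where 141 of all genes were called. The 4 calls of the DmSTING RNAi arm became 7 with quantile normalization, where those of all genes went from 819 to 1294. They became 2 with the probe set of largest spread (778 of all genes) and 2 when only the 4 samples compared were fitted (818). In both arms calls were lost without some single samples. The cause of these changes was not tested. The contrasts with 0 calls stayed at 0 throughout. Uncalled germline copies changed sign when 1 sample was left out: eIF4E5 ran from -0.07 (without replicate 1 of scrambled mock or of DmSTING RNAi c-di-GMP) to 0.15, and was at -0.01 without replicate 1 of the other groups. eIF4E6 ran from -0.16 to 0.02 (without replicate 1 of DmSTING RNAi c-di-GMP), and was at 0 without replicate 2 of scrambled mock. eIF3d2 ran from -0.01 (without replicate 1 of scrambled c-di-GMP) to 0.08.

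With the replicate number as a block the calls were 10 on average, 6 in the scrambled arm and 3 in the DmSTING RNAi arm, and 0 elsewhere. The average lost eIF4G2, the scrambled arm eIF1, eIF3m and eIF4B, and the DmSTING RNAi arm eIF2beta and eIF3j, where eIF4G1 was gained and 2 of the 4 calls were kept. The samples share only a number: deviations of same-numbered samples correlated across genes at 0.009 to 0.289 over the 6 pairs of groups. Centred values hold no signal over background, so its limits are not known.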
